A study of Paeonia lactiflora with 8 samples.

Results

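Small RNA libraries from the reproductive organs of herbaceous peony, Paeonia lactiflora, were set against libraries from its vegetative organs. The 4 reproductive libraries came from flower (2) and young fruit (2), and the 4 vegetative libraries came from root (2) and leaf (2), so all 8 libraries of the series took part. Flower, root and leaf were taken in the blossom period and fruit in the young fruit period, so organ and stage cannot be told apart for fruit. The plants carried no stated treatment or genetic change, and the 2 libraries of an organ are called biological replicates, without saying whether each is a single plant or a pool. The study collected these organs because they differ in paeoniflorin, a monoterpene glycoside of peony, which was not measured in the values used here. No messenger RNA was used here, so the organ labels were not checked against marker genes. The deposited table held 270 different mature sequences in 304 entries. Of these, 216 had a normalized read count of at least 1 in at least 2 libraries and were compared. A miRNA was a member of the described set when its 4 reproductive values and its 4 vegetative values did not overlap, and 11 of the 216 miRNAs met this rule, 6 higher and 5 lower in the reproductive organs.

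Plant miRNAs are short RNAs, mostly of 21 nt, that are cut from hairpin precursors by the enzyme DCL1, loaded into an Argonaute protein such as AGO1, and guide it to messenger RNAs of matching sequence. Many old families act on transcription factors that time growth phases and shape organs, among them SPL genes under miR156 and miR157, GRAS genes under miR171 and auxin response factors under miR160. Other families act on immune receptor genes, on the silencing machinery itself or on enzymes of nutrient and copper supply. All such roles given here are background from other plants, mostly Arabidopsis, and targets were not measured.

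The 6 members that were higher in the reproductive organs are shown first, because their identity bears on what was measured. Sequences are from the deposited table, written 5′ to 3′ as DNA letters, with the seed (bases 2 to 8) in capitals for sequences of known families or predicted hairpins and no capitals for simple repeats.
sly-miR171e: tTGAGCCGcgtcaatatctct
PC-3p-503_5584: cGGTGGAAgaatggattcgggg
ath-miR162a-5p_L-1: gGAGGCAGcggttcatcgatc
vvi-miR156a_L+1_1ss21CT: tTGACAGAagagagggagcat
gra-MIR482d-p5_1: acacacacacacacacaca
gra-MIR482d-p5_2: tatatacacacacacacacac

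The 5 members that were lower in the reproductive organs follow, with the seed in capitals for the miR482 and miR535 names and no capitals for the others.
gso-miR482a_R+1: tCTTCCCTacacctcccatacc
ppe-MIR535a-p5_2ss12GA18CT: aGAGAGAGcacacttgttggc
osa-MIR2118e-p3_2ss13TA19CT: gaaaagagagtcaaagagt
hbr-MIR6173-p3_1ss3CT: agtgctgtagctaacgcgtta
hbr-MIR6173-p5: agataccccagtagtccta

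No seed was shared between any of the members printed above. Of the 11, 3 were 18 or 19 nt long, and 31.5% of the 216 miRNAs compared had these lengths. In the names, the prefix names the species whose miRBase entry matched best, L and R mark bases gained or lost at the left and right end, ss marks substitutions, and PC marks a miRNA predicted by the authors without a known hairpin.

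The libraries differed in depth and in other ways that touch the comparison. The summed normalized read count ran from 179334 to 536567 in reproductive libraries and from 187782 to 267174 in vegetative libraries, and the number of reads implied by the smallest step between values ran from 128476 to 724509 and from 73898 to 331706. A value of 3 reads was at most 4.19 in a reproductive library and 7.62 in a vegetative one (root 2), and lower values were taken as not detectable there, a limit that covers counting error only. Sequences of 18 and 19 nt held 16% of the root 2 total, 1.46% of root 1, and between 0.547% and 1.93% in the other libraries. Much of the root 2 share was a single sequence of 19 nt, ath-miR396b-5p_R-2. It was 21185 in root 2, of a summed value of 187782, against 99.6 in root 1. Flower 1 and fruit 2 shared 5 miRNAs that were listed at 0 in the other 6 libraries, all 5 with the prefix of a grass species. Across miRNAs, Pearson's r of the log2 values was 0.692 between the root libraries, between 0.861 and 0.915 within the other organs, between 0.719 and 0.85 from flower to fruit, between 0.614 and 0.745 from root to leaf, and between 0.629 and 0.752 across the classes. These values are descriptions, since miRNAs are not independent replicates. Of the between-organ sum of squares over the 216 miRNAs, 35.5% lay between the reproductive and vegetative classes, 26.9% between flower and fruit, and 37.6% between root and leaf. Each is a single contrast, so the class share was close to an equal split. The sum also holds spread between replicates.

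**Figure D1:**
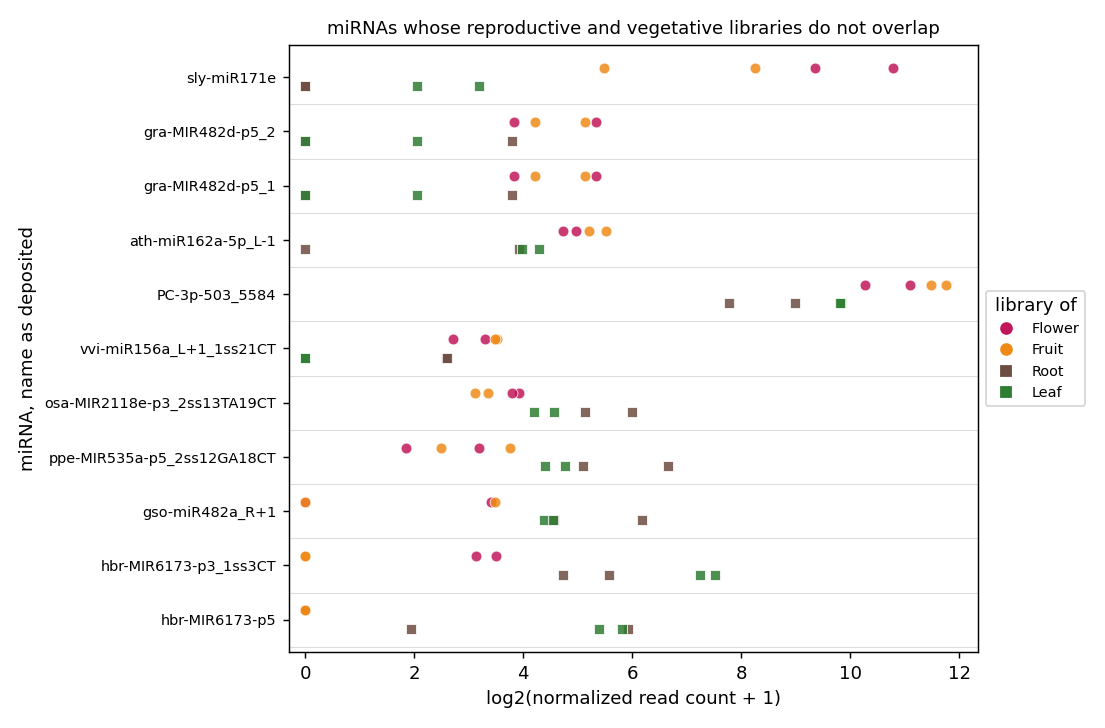
Level of each of the 11 miRNAs in each library, as log2(normalized read count + 1) on the horizontal axis. Circles are flower and fruit libraries and squares are root and leaf libraries, 1 point per library. The gap between the classes is wide for sly-miR171e, at 44 or more in reproductive and 8.16 or less in vegetative libraries, and narrow for the gra-MIR482d sequences, at 13.2 or more and 12.8 or less.

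The miR171 family targets GRAS transcription factors of the SCARECROW-LIKE group, which in Arabidopsis hold meristem cells undifferentiated. Its member sly-miR171e was 658 and 1776 in flower and 44 and 304 in fruit, against 0 and 0 in root and 3.15 and 8.16 in leaf. Every reproductive library was above every vegetative one, and the lowest, fruit 1, was 5.39 times the highest, leaf 2. The leaf values stand for about 3 and 11 reads. The mean was 696 ± 763 in reproductive and 2.83 ± 3.85 in vegetative libraries (SD, n = 4 each), a 246-fold ratio. The log2 difference, reproductive minus vegetative, was 7.16 ± 0.87 (SE, adjusted p = 0.0265, limma), the largest positive difference among the 216. Flower was higher than fruit by 3.21 ± 1.23 on the log2 scale, which was not called (adjusted p = 0.259, limma). The call was lost without flower 2 (adjusted p = 0.0525, limma), fruit 2 (0.117), leaf 1 (0.0983) or leaf 2 (0.069), with log2 differences between 6.47 and 7.45 in these fits. It was also lost with the organ as a correlated block (adjusted p = 0.0656, limma) and with a pseudocount of 10, where the log2 difference was 4.92 (0.0762).

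The sequence of sly-miR171e starts 3 bases further along than the family's most abundant form, so that its first 10 bases, in capitals, are bases 4 to 13 of that form and the seeds differ.
sly-miR171e: TTGAGCCGCGtcaatatctct
ath-miR171a-3p_1ss17AG: tgaTTGAGCCGCGccagtatc
The abundant ath-miR171a-3p_1ss17AG was 5789 and 23044 in flower and 290 and 3274 in fruit, against 1586 and 1605 in root and 6605 and 4662 in leaf. Its classes overlapped, and its log2 difference was 0.17 ± 0.89 (SE, adjusted p = 0.932, limma). aly-miR171b-3p, which shares the first 8 bases with sly-miR171e, was 286 and 150.1 in flower and 11.9 and 91.3 in fruit, against 22.8 and 16.5 in root and 22.5 and 53.4 in leaf. Its difference missed the threshold (adjusted p = 0.326, limma).

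PC-3p-503_5584 is a predicted miRNA with no known target. It was 1234 and 2194 in flower and 3481 and 2866 in fruit, against 506 and 219 in root and 914 and 896 in leaf. Fruit was highest and root lowest, and flower 1 lay 1.35 times above leaf 1, the nearest vegetative library. With a mean of 2444 ± 963 in reproductive and 634 ± 335 in vegetative libraries (SD, n = 4 each), it was the most abundant member and differed 3.86-fold. On the log2 scale the difference was 2.05 ± 0.5 and was not called (SE, adjusted p = 0.0900, limma). Without root 1 it was 2.35 and was called (adjusted p = 0.0286, limma), and without root 2 it was 1.75 and was not called. Bases 6 to 16 of it are the reverse complement of a run of 11 bases in PC-5p-3586_985, and these bases are in capitals in both. Whether both come from the same hairpin was not tested.
PC-3p-503_5584: cggtgGAAGAATGGATtcgggg
PC-5p-3586_985: tcgATCCATTCTTCgatcgct
The values of PC-5p-3586_985 overlapped between the classes, at 51 and 129 in flower and 497 and 189 in fruit, against 89.6 and 43.2 in root and 117 and 312 in leaf.

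The strand ath-miR162a-5p_L-1 comes from the arm opposite mature miR162, which targets DCL1. It was 25.5 and 30.4 in flower and 44.7 and 36 in fruit, against 14.2 and 0 in root and 14.7 and 18.6 in leaf. Every reproductive library was higher, fruit more than flower, and the lowest reproductive value was 1.37 times the highest vegetative one. Reproductive minus vegetative was 2.06 ± 1 on the log2 scale and was not called (SE, adjusted p = 0.319, limma), and it leaned on root 2, which is at 0. Without root 2 it was 1.08 (adjusted p = 0.163, limma), and without root 1, where that 0 stands alone for root, it was 3.04 (0.021). The mature strand, lus-miR162a, was 864 and 1236 in flower and 2478 and 1826 in fruit, against 946 and 2142 in root and 587 and 1106 in leaf, so that its classes overlapped.

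miR156 and miR157 hold down SPL genes, which promote the passage from juvenile to adult growth and to flowering. vvi-miR156a_L+1_1ss21CT was 8.86 and 5.55 in flower and 10.5 and 10.1 in fruit, against 4.98 and 5.08 in root and 0 and 0 in leaf. The classes were close, since flower 2 lay 1.09 times above root 2, whose value is under the 3 reads that could be told from 0 there. The log2 difference was 1.96 ± 0.61 and was not called (SE, adjusted p = 0.178, limma), and it was called without root 1 (adjusted p = 0.0459, limma) or root 2 (adjusted p = 0.0435, limma). It differs from the far more abundant ath-miR157a-5p_2ss12TG15AG by C21T, counted from the 5′ end, and shares its seed.
vvi-miR156a_L+1_1ss21CT: tTGACAGAagagagggagcat
ath-miR157a-5p_2ss12TG15AG: tTGACAGAagagagggagcac
ath-miR157a-5p_2ss12TG15AG, named here for its likeness, was 45306 and 24954 in flower and 29.3 and 15531 in fruit, against 55.5 and 173 in root and 52.4 and 17.8 in leaf. It was thus at 15531 or more in 3 of 4 reproductive libraries and below both root libraries in fruit 1, and so was no member. Its log2 difference was 6.42 ± 1.88 (SE, adjusted p = 0.174, limma), 8.67 without fruit 1 (adjusted p = 0.0173, limma) and 4.17 without fruit 2 (0.135).

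The other higher members were a pair named for miR482, a family that targets immune receptor genes of the NLR type. The first is a run of alternating A and C, and the second has such a run from base 6 on, after alternating T and A. As their values were the same in all 8 libraries they stand for 1 measurement. Each was 13.2 and 39.6 in flower and 34.2 and 17.5 in fruit, against 12.8 and 0 in root and 3.15 and 0 in leaf. Flower 1 lay only 1.03 times above root 1. The difference of 3.17 ± 1.13 on the log2 scale was not called (SE, adjusted p = 0.206, limma), and it leaned on root 2, which is at 0. Without root 2 it was 2.22 (adjusted p = 0.176, limma), and without root 1, where that 0 stands alone for root, it was 4.12 (0.0493). Of the 9 sequences named miR482, 6 hold at least 10 bases of alternating A and C, and these letters match repeats at many places in plant genomes.

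Among the members that were lower in the reproductive organs, gso-miR482a_R+1 has the sequence of a miR482 proper. It was 0 and 9.63 in flower and 0 and 10.1 in fruit, against 22.8 and 71.2 in root and 19.9 and 22.3 in leaf. The vegetative values were all at least 1.96 times the highest reproductive value, and the mean was 4.94 ± 5.71 in reproductive and 34 ± 24.8 in vegetative libraries (SD, n = 4 each). The difference of -3.2 ± 1.21 on the log2 scale was not called (SE, adjusted p = 0.23, limma). Under the same family number, the other AC repeats compared overlapped between the classes, and gra-MIR482d-p5_1ss3CA had -1.19 ± 0.76 on the log2 scale, which was not called (SE, adjusted p = 0.42, limma). The summed miR482 family had overlapping classes (adjusted p = 0.928, limma).

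miR535 is a relative of miR156 and miR529 that acts on SPL genes in some plants. ppe-MIR535a-p5_2ss12GA18CT was 2.59 and 8.15 in flower and 12.6 and 4.61 in fruit, against 99.6 and 33 in root and 26.2 and 20 in leaf. Root was highest, and the lowest vegetative value, leaf 2, was 1.59 times the highest reproductive one. A log2 difference of -2.4 ± 0.8 was not called (SE, adjusted p = 0.19, limma). Its first 13 bases are the last 13 of the predicted PC-5p-97_25693, and the first 11 of these also lie in aqc-miR535_R-1. The shared bases are in capitals.
ppe-MIR535a-p5_2ss12GA18CT: AGAGAGAGCACACttgttggc
PC-5p-97_25693: tgacggagAGAGAGAGCACAC
aqc-miR535_R-1: tgacaacgAGAGAGAGCACgc
The abundant PC-5p-97_25693 was 3097 and 6837 in flower and 2253 and 2424 in fruit, against 9794 and 4983 in root and 12229 and 11412 in leaf. Only flower 2 was above a vegetative library, root 2, so it lay just outside the set. Its log2 difference of -1.47 ± 0.48 was not called (SE, adjusted p = 0.19, limma). Another predicted miRNA outside the set, PC-3p-859_3455, named for the size of its difference, was 26.8 and 179 in flower and 6.98 and 9.22 in fruit, against 2598 and 107 in root and 1724 and 988 in leaf. Its log2 difference of -5.04 ± 1.16 was not called (SE, adjusted p = 0.0823, limma). aqc-miR535_R-1 was 48.4 and 12.7 in root and listed at 0 in the other 6 libraries. Whether these overlapping sequences share a precursor was not tested.

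The other lower members carry the names of miR6173 and miR2118. A likeness of their letters to ribosomal RNA, given below as background, was not tested. hbr-MIR6173-p3_1ss3CT was 7.78 and 10.4 in flower and 0 and 0 in fruit, against 46.9 and 25.4 in root and 182 and 149.9 in leaf. Leaf was highest, root between, and fruit lowest, and the lowest vegetative value was 2.45 times the highest reproductive one. The mean was 4.54 ± 5.34 in reproductive and 101 ± 76.7 in vegetative libraries (SD, n = 4 each), 22.3-fold lower in the reproductive organs. The log2 difference was -4.61 ± 0.67 (SE, adjusted p = 0.0359, limma). The call was lost without fruit 1 (adjusted p = 0.137, limma), fruit 2 (0.117), leaf 1 (0.19) or leaf 2 (0.116), and under quantile normalization (0.114). It was also lost with organ class as the only term (adjusted p = 0.138, limma), with the organ as a correlated block (0.352) and with a pseudocount of 10, where the log2 difference was -2.69 (0.0901).

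hbr-MIR6173-p5 was listed at 0 in all flower and fruit libraries, against 2.85 and 59.7 in root and 55.6 and 41.2 in leaf. Its root 1 value is about 2 reads, under the 3 reads that could be told from 0 there, so no difference from that library could be detected. It was not called (adjusted p = 0.0818, limma), but was without root 1 (adjusted p = 0.0052, limma) or root 2 (adjusted p = 0.00627, limma). Its last 9 bases, in capitals, are the first 9 of the third sequence of this name. Whether both come from a longer RNA was not tested.
hbr-MIR6173-p5: agataccccaGTAGTCCTA
hbr-MIR6173-p5_1ss10AT: GTAGTCCTAtgccgtaaacga
hbr-MIR6173-p5_1ss10AT was 1.73 and 14.8 in flower and 0 and 0 in fruit, against 9.96 and 144 in root and 305 and 275 in leaf. As background, the joined letters read like a conserved stretch of the 16S type of ribosomal RNA found in plastids. No ribosomal sequence was used here, so this likeness was not tested, and the labels state that ribosomal reads had been filtered out.

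osa-MIR2118e-p3_2ss13TA19CT carries the name of miR2118, a relative of miR482 that targets NLR genes, yet its letters read like a conserved stretch of plant 25S ribosomal RNA, which was not tested either. It was 14.3 and 13 in flower and 7.68 and 9.22 in fruit, against 62.6 and 34.3 in root and 22.5 and 17.4 in leaf. The classes were separated by 1.22 times, and the log2 difference of -1.42 ± 0.65 was not called (SE, adjusted p = 0.282, limma). Sequences of 18 nt with a final CCA, the end of mature transfer RNA, held between 0.304% and 1.33% of the summed value in reproductive libraries and between 0.188% and 3.61% in vegetative libraries. Their part in these lower values was not tested.

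**Figure D2:**
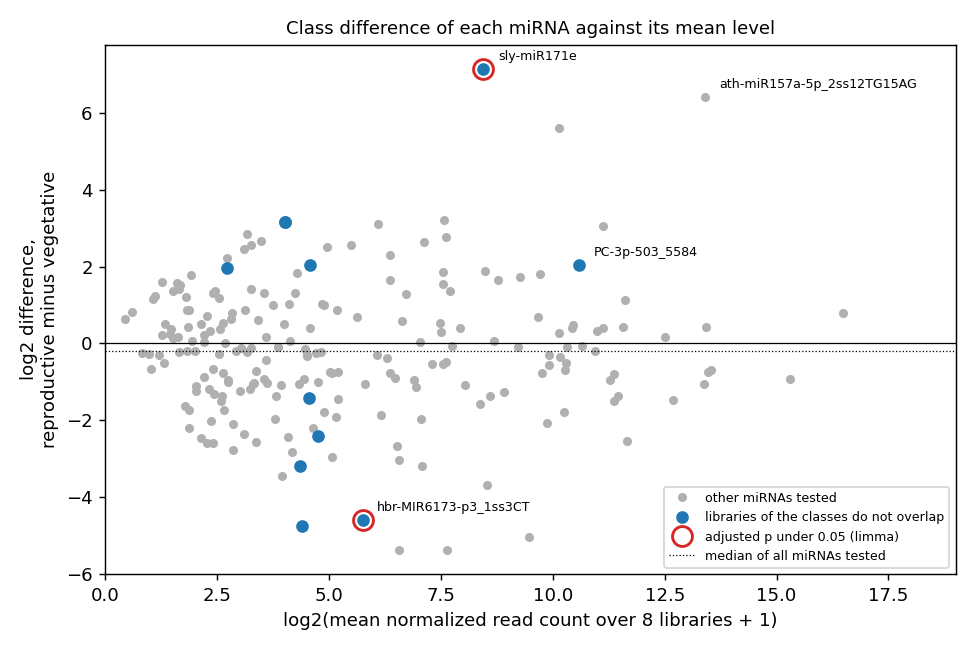
Log2 difference, reproductive minus vegetative, of each of the 216 miRNAs against the log2 of its mean level over 8 libraries. Filled blue points are the 11 miRNAs whose classes do not overlap (2 of them coincide), red rings mark the 2 called miRNAs, and the dotted line is the median of all, at -0.20.

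Over all 216 miRNAs, limma called 2 (0.926%), with sly-miR171e higher and hbr-MIR6173-p3_1ss3CT lower in the reproductive organs. At an unadjusted p under 0.05 there were 42 (19.4%), of which 19 were higher (8.8% of 216) and 23 lower (10.6%). The 11 members were 5.09% of the 216, with 2.78% higher and 2.31% lower, and as the rule used this contrast nothing further is read from that share. The split of members into 6 higher and 5 lower was 3 and 6 under quantile normalization and 5 and 8 after scaling to the same summed value. The median log2 difference of all miRNAs was -0.20 as deposited, -0.01 after quantile normalization, -0.24 after scaling to the same sum and -0.11 after scaling by median ratio. Each of the 11 members kept its direction under all of these, but all 11 had been picked because their classes did not overlap. The number of calls was 26 without root 1, 25 without root 2, 10 without flower 1, 7 without flower 2, 2 without fruit 1 or leaf 2, and 0 without fruit 2 or leaf 1, where 31 and 26 had an unadjusted p under 0.05. With the organ as a correlated block, limma called 0, and 10 had an unadjusted p under 0.05. With 2 organs per class, this fit cannot speak for reproductive and vegetative organs in general.

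The organs of a class were also compared with each other. The F test of flower against fruit and root against leaf called 20 of the 216 miRNAs (9.26%) and 0 of the 11 members. Of these 20, 16 were listed at 0 in both libraries of at least 1 organ, so that this organ showed no spread. Most of the 20 shared an adjusted p of 0.04998 (F test, limma), just under the threshold, so the count hangs on a narrow margin. It was 2 with no filter and 0 with a pseudocount of 10. At an unadjusted p under 0.05 the F test gave 2 of the 11 members, sly-miR171e and hbr-MIR6173-p3_1ss3CT, and 28.2% of all 216. The rule used the same 8 values and favours a small spread within a class, so nothing is read from these counts. For sly-miR171e and hbr-MIR6173-p3_1ss3CT the adjusted p of the F test was 0.149 and 0.0932 (limma).

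Values just outside the rule show how it fell. In the higher direction, 4 miRNAs with a mean of at least 10 touched the vegetative range only because both classes held a library at 0, and these 4 were present in flower 1 and fruit 2 alone. They included bdi-MIR7757-p5_1ss18CT, at 29.4 and 51.6, tae-miR9773_R+1, at 30.2 and 38.7, and ata-miR528-5p, at 23.3 and 36.9. In the lower direction 5 did so, such as ppe-miR858_R-2, at 0 in all reproductive libraries against 0 and 91.5 in root and 11.5 and 11.9 in leaf. Next came smo-MIR1097-p5_2ss4GT19GC, where flower 1 at 161.6 lay below leaf 1 at 165.7 and leaf 2 at 175.9, and ath-miR156j_1ss14AT, where fruit 2 at 902 exceeded leaf 2 at 845. The members just inside were the AC repeats, at 1.03 times, and vvi-miR156a_L+1_1ss21CT, at 1.09 times.

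Values of all compared miRNAs of a family were also summed, which gave 83 families. The classes did not overlap for 4 families (4.82%), all lower in the reproductive organs, and limma called 1 (1.2%). That family was miR6173, at 9.51 and 25.2 in flower and 0 and 0 in fruit, against 59.7 and 229 in root and 543 and 466 in leaf. The classes differed by -5.9 ± 0.78 on the log2 scale (SE, adjusted p = 0.00604, limma). It was not called without flower 2 (adjusted p = 0.0774, limma) or leaf 1 (0.0679), or with the organ as a correlated block (0.0988).

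The other abundant family among the 4 was miR160, which targets auxin response factors. Its sum was 387 and 642 in flower and 337 and 450.1 in fruit, against 4321 and 846 in root and 1916 and 1387 in leaf. The lowest vegetative library, root 2, was above the highest reproductive one, flower 2, and the organs of a class were in no common order. This difference, -2 ± 0.68 on the log2 scale, was not called (SE, adjusted p = 0.199, limma), and was -2.59 without root 2, where it was called (adjusted p = 0.0191, limma), and -1.41 without root 1 (0.101). No single miR160 sequence was a member. The mature ath-miR160a-5p was 224 and 466 in flower and 131 and 207 in fruit, against 3590 and 133 in root and 1596 and 1168 in leaf, so that root 2 fell among the reproductive libraries. The opposite strand, ath-miR160a-3p_1ss16TA, was 92.5 and 82.2 in flower and 154.9 and 160.5 in fruit, against 316 and 556 in root and 73.4 and 63.8 in leaf, so that all reproductive values lay between those of root and leaf. The miR535 sum was 2.59 and 8.15 in flower and 12.6 and 4.61 in fruit, against 147.9 and 45.7 in root and 26.2 and 20 in leaf. The miR2118 family had the 1 member given above.

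**Figure D3:**
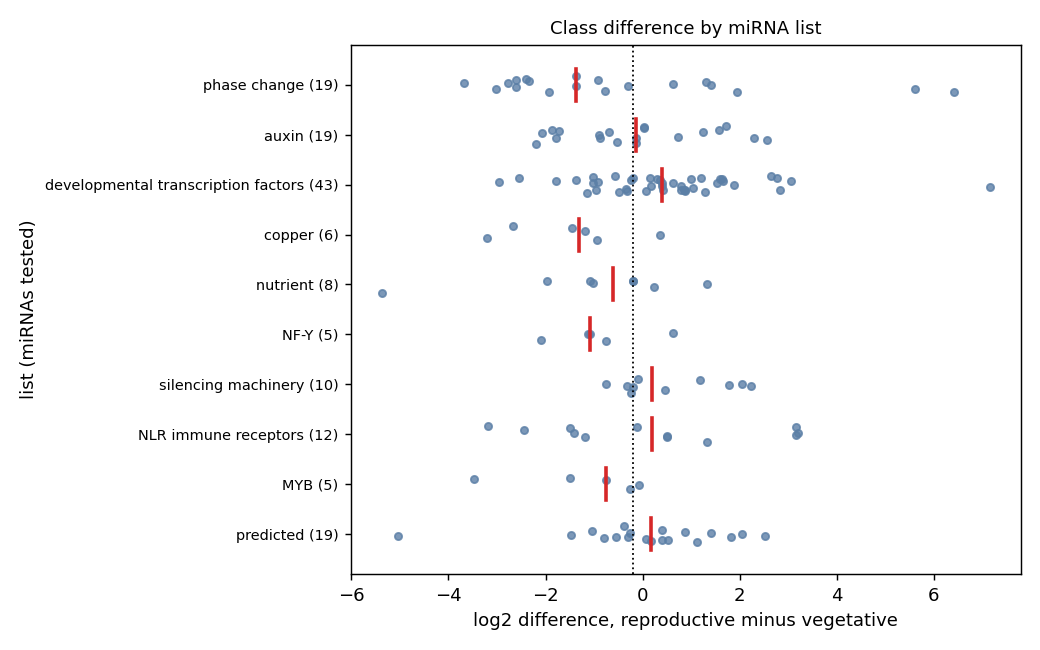
Log2 difference, reproductive minus vegetative, of the miRNAs of 10 lists, 1 point per miRNA, with the list median in red and the median of all 216 miRNAs as a dotted line. Phase change and copper miRNAs have medians of -1.36 and -1.31, and developmental transcription factor miRNAs 0.40.

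Lists of families with related targets were described by their counts and medians, beside 0.926% called, 19.4% at an unadjusted p under 0.05 and a median log2 difference of -0.20 over all miRNAs. Of 19 phase change miRNAs (miR156, miR157, miR172, miR529 and miR535), 0 were called by limma, 2 were higher and 7 lower at an unadjusted p under 0.05, and the median was -1.36. The list's 2 largest differences ran the other way, at 6.42 for ath-miR157a-5p_2ss12TG15AG, given above, and 5.62 for gma-MIR156f-p3_1ss12CG, neither called. Its summed value was between 1277 and 52480 in reproductive libraries and between 2269 and 3423 in vegetative libraries. Its low members included the opposite strand aly-miR172b-5p_1ss2CT, at 19.7 and 0 in flower and 94.9 and 26.7 in fruit, against 68.3 and 72.4 in root and 148.4 and 321 in leaf. Another was zma-miR156a-3p_1ss22TG, at 225 and 30.4 in flower and 9.77 and 7.38 in fruit, against 849 and 43.2 in root and 1446 and 324 in leaf. Neither was called (adjusted p = 0.216 and 0.19, limma). Also among the 7 were ppt-MIR529d-p3_2ss10TC17TG, cme-MIR172d-p3_2ss7AG18AT, cme-MIR172d-p5_2ss8AG19AT and aqc-miR535_R-1. They were at 0 in all reproductive libraries, with low vegetative means, between 7.65 and 15.3. The more abundant nta-miR172d (adjusted p = 0.321, limma) and ath-miR156j_1ss14AT (adjusted p = 0.395, limma) were not among the 7.

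Of 43 developmental transcription factor miRNAs (miR159, miR164, miR166, miR171, miR319 and miR396), 1 was called higher, sly-miR171e, 5 were higher and 0 lower at an unadjusted p under 0.05, and the median was 0.40. A star strand of this list, vvi-MIR159c-p5_1ss10CA, was 1140 and 6311 in flower and 4386 and 3160 in fruit, against 317 and 2231 in root and 106 and 268 in leaf, with only flower 1 below root 2 (adjusted p = 0.174, limma). Of 19 auxin miRNAs, 0 were called and the median was -0.14, which became 0.07 under quantile normalization. At an unadjusted p under 0.05, 2 auxin miRNAs were higher and 3 lower.

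Of 6 copper miRNAs, whose families target laccases, superoxide dismutase and plantacyanin, 0 were called, 0 had an unadjusted p under 0.05 and the median was -1.31. In ath-miR408-3p_L-1R+1_2ss12CT15CT the vegetative level came almost wholly from leaf, at 0 and 16.3 in flower and 0 and 15.7 in fruit, against 7.11 and 0 in root and 624 and 404 in leaf. Of 8 nutrient miRNAs, 0 were called, 1 was lower at an unadjusted p under 0.05 and the median was -0.62. The 1 was aly-miR395d-5p_2ss5TC8CG, from the hairpin of miR395 of sulfate assimilation, at 31.5 and 7.41 in flower and 0 and 0 in fruit, against 234.7 and 10.2 in root and 974 and 315 in leaf (adjusted p = 0.0818, limma). In both miRNAs leaf 1 was the highest library.

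In the other 5 lists limma called 0 in all. The medians were -1.08 for 5 NF-Y miRNAs, 0.19 for 10 silencing machinery miRNAs, 0.19 for 12 NLR miRNAs, -0.76 for 5 MYB miRNAs and 0.16 for 19 predicted miRNAs. At an unadjusted p under 0.05, 0 NF-Y miRNAs, 1 silencing machinery miRNA, 4 NLR miRNAs (3 higher, 1 lower), 1 MYB miRNA and 4 predicted miRNAs (2 higher, 2 lower) stood out.

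Some miRNAs lay on opposite sides of the vegetative organs in flower and fruit. By the listed values this held for 3 of the 216 (1.39%), all of conserved families.
ath-miR858b: tTCGTTGTctgttcgaccttg
sbi-miR169e: tAGCCAAGgatgacttgccgg
mes-miR403a_1ss19TC: tTAGATTCacgcacaaacccg
miR858 targets MYB genes of flavonoid synthesis and growth in Arabidopsis. ath-miR858b was 3138 and 4664 in flower and 308 and 267 in fruit, against 1090 and 971 in root and 856.6 and 1597 in leaf. Both flower libraries were above, and both fruit libraries below, every root and leaf library. Flower minus fruit was 3.73 ± 0.65 (SE, adjusted p = 0.0462, limma), while the class difference was -0.06 ± 0.46 (SE, adjusted p = 0.955, limma).

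miR169 targets NF-YA subunits. sbi-miR169e was 35.6 and 30.4 in flower and 0 and 0 in fruit, against 10.9 and 7.12 in root and 10.5 and 19.5 in leaf. The root 2 value is under the 3 reads that could be told from 0 there, so fruit could not be told from root 2. Flower minus fruit was 5.08 ± 0.97 (SE, adjusted p = 0.0569, limma), and the class difference was -1.08 ± 0.69 (SE, adjusted p = 0.418, limma). Summed over its 5 compared sequences, miR169 was 113 and 133 in flower and 5.58 and 0 in fruit, against 50.3 and 67.6 in root and 75.5 and 72.5 in leaf (flower minus fruit 5.59, adjusted p = 0.0386, limma).

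miR403 targets AGO2, an Argonaute of defence, and lay in the other order. mes-miR403a_1ss19TC was 821 and 404 in flower and 3802 and 3718 in fruit, against 2009 and 1131 in root and 1572 and 2273 in leaf. Both fruit libraries were above, and both flower libraries below, every root and leaf library. Flower minus fruit was -2.7 ± 0.69 on the log2 scale and was not called (SE, adjusted p = 0.102, limma).

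**Figure D4:**
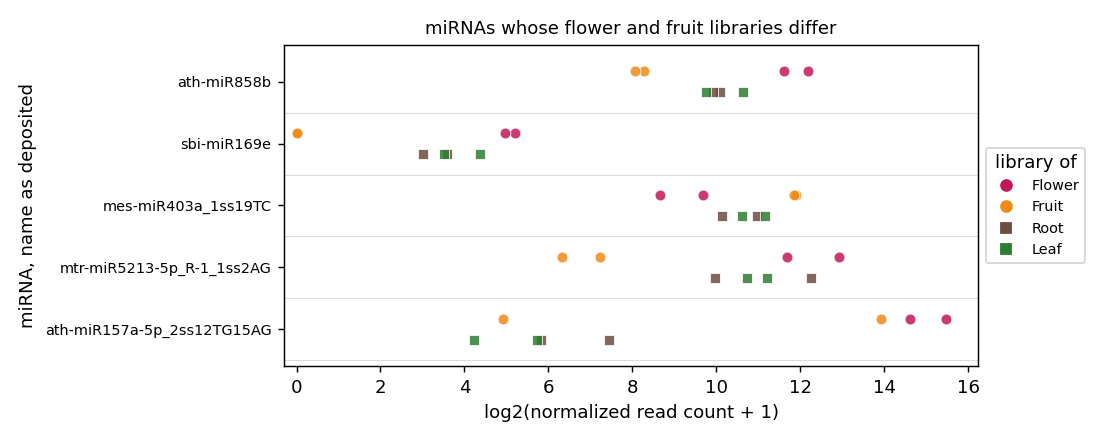
Levels in each library, as log2(normalized read count + 1), of the 3 miRNAs whose flower and fruit libraries lie on opposite sides of all root and leaf libraries, and of mtr-miR5213-5p_R-1_1ss2AG and ath-miR157a-5p_2ss12TG15AG. Circles are flower and fruit and squares are root and leaf. For ath-miR157a-5p_2ss12TG15AG, fruit 1 at 29.3 stands apart from fruit 2 at 15531.

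Root and leaf lay on opposite sides of all reproductive libraries for another 3 of the 216 (1.39%), beside 18 (8.33%) called by limma for root minus leaf. They were ath-miR160a-3p_1ss16TA, given above, ath-miR167a-3p_L+1_2ss10TG11C- and bol-MIR9410-p5_2ss4TG17TA. ath-miR167a-3p_L+1_2ss10TG11C-, from the hairpin of miR167, which targets auxin response factors of flower development, was 73.9 and 41.1 in flower and 108.9 and 136 in fruit, against 11.4 and 34.3 in root and 281 and 352 in leaf. Its class difference was 0.03 ± 0.61 (SE, adjusted p = 0.968, limma) and root minus leaf was -3.92 (adjusted p = 0.0441, limma).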

How the data were processed

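Small RNA was sequenced from flower, fruit, root and leaf of Paeonia lactiflora, 2 libraries each, on an Illumina instrument after TruSeq small RNA preparation, per the labels' protocols. Per the file headers, each deposited value is a normalized read count. The authors normalized this signal before it was deposited, by a formula that the labels do not state. Reads had been filtered with ACGT101-miR, per the labels' protocols, to remove adapter dimers, low complexity, repeats, ribosomal RNA and transfer RNA, and names follow miRBase, per the deposited legend. The genome build is not given in the sources used here, so no genome position is printed. In each library between 92.9% and 98.6% of values above 0 were multiples of 0.5 step, within a tolerance of 0.01 step for whole ones, and between 74.6% and 83.2% were whole, so reads appear to have been split, and no count model was used. The step served solely for depth and for what 3 reads are worth.

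Entries with an identical sequence were counted once under the first name. Values were turned into log2(value + 1), which understates changes of low values, and limma 3.58.1 under R 4.3.3 was run with organ as the only term and a mean-variance trend (4 residual and 2.43 prior degrees of freedom). The contrast was the mean of flower and fruit minus the mean of root and leaf, and a call needed an adjusted p (Benjamini-Hochberg, across 216 miRNAs or 83 families) under 0.05. This tests these 4 organs against the spread between 2 libraries of an organ, and a fit with organ as a correlated block was an alternative. The plants behind the replicates are not described, so p-values measure the spread between libraries. A fold is the ratio of class means. The script was tested on simulated data. Of 40 simulated class changes among 216 miRNAs, it recovered 0% at log2 1 or 2, 70% at 4 and 95% at 6. A small difference that was not called is thus not shown to be absent. Other alternatives were pseudocounts, filters, scalings, library weights, a replicate block and leaving out each library. In the last case the lone library of an organ was assumed to vary like the others.

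Members and lists were chosen with earlier results of these data known. Every member was described, and further miRNAs were named by size of difference, by nearness to the rule, or as related sequences and list examples chosen after their values were seen. Naming by size asked for a mean of at least 10 in the higher class. The member vvi-miR156a_L+1_1ss21CT and, in the closing section, ptc-miR390a_R+1, lus-MIR162b-p3_2ss16GA17AG and bdi-miR393b-3p fall below it. Names with an animal prefix numbered 0.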

Additional observations from a re-analysis of the deposited data

Results flagged for a closer look

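Within a class of 4 libraries, 1 library lay far from the other 3 in 4 of the 38 groups examined. They were root 2 for ath-miR162a-5p_L-1, at 0, root 2 for gso-miR482a_R+1, at 71.2, root 1 for hbr-MIR6173-p5, at 2.85, and fruit 1 for ath-miR157a-5p_2ss12TG15AG, at 29.3. Chance flags about 1 in 20 unpicked groups, but these miRNAs were largely picked by these same values. The count therefore cannot be set against that rate.

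Flower and fruit, set against the same root and leaf libraries, differed in 5 miRNAs by the test of flower minus fruit (2.31% of 216, adjusted p under 0.05, limma). All 5 were higher in flower. The log2 differences were 8.51 ± 1.09 for zma-miR171a-3p_L+1R+1_1ss18AG (adjusted p = 0.0356), 5.53 ± 0.97 for mtr-miR5213-5p_R-1_1ss2AG (0.0462), 3.73 ± 0.65 for ath-miR858b (0.0462), 3.58 ± 0.53 for lus-MIR162b-p3_2ss16GA17AG (0.0425) and 2.48 ± 0.44 for ptc-miR390a_R+1 (0.0462), with the SE of limma. For zma-miR171a-3p_L+1R+1_1ss18AG the values were 167.7 and 787 in flower and 0 and 0 in fruit, against 0 and 0 in root and 278 and 209.6 in leaf, so that it was present in flower and leaf alone. mtr-miR5213-5p_R-1_1ss2AG, whose family targets NLR genes in Medicago, was 3267 and 7796 in flower and 78.9 and 148.5 in fruit, against 4893 and 999 in root and 2353 and 1699 in leaf. lus-MIR162b-p3_2ss16GA17AG, at 13.4 and 8.89, and ptc-miR390a_R+1, at 4.75 and 4.44, were listed above 0 in flower alone. Fruit, root and leaf thus showed no spread for both. The values of ptc-miR390a_R+1 are under the 7.62 that 3 reads are worth in root 2, and near the 4.19 of fruit 1. The flower libraries were also deeper, at 519033 and 724509 implied reads against 128476 and 201512 in fruit. Each of the 5 calls was lost without fruit 1, fruit 2, leaf 1 or leaf 2 and with a pseudocount of 10. Over all alternatives, zma-miR171a-3p_L+1R+1_1ss18AG was called in 13 of 19, ath-miR858b in 7 of 19, mtr-miR5213-5p_R-1_1ss2AG in 6 of 19, and lus-MIR162b-p3_2ss16GA17AG and ptc-miR390a_R+1 in 8 of 18 each.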

How the results depend on the processing

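Against 2 class calls and 1 family call, a pseudocount of 10 gave 0 and 1, quantile normalization 1 and 1, organ class as the only term 1 and 2, and organ class with the organ as a correlated block 0 and 0. The 20 calls between organs of a class became 0 with a pseudocount of 10, 2 with no filter or with a minimum of 10, 1 with quantile normalization or library weights, and 2 with equal sums. Where limma called 0 here, an unadjusted p under 0.05 was held by 37 (class) and 47 (organs) with a pseudocount of 10, and by 10 miRNAs and 2 families with the correlated block. Leaving out 1 library gave 0 to 26 class calls, 0 to 8 family calls, 0 to 54 calls between organs of a class and 11 to 24 miRNAs without overlap, fewer libraries making overlap rarer by construction. Quantile normalization kept 5 of the 11 members. It lost PC-3p-503_5584, gra-MIR482d-p5_1, gra-MIR482d-p5_2, gso-miR482a_R+1, osa-MIR2118e-p3_2ss13TA19CT and vvi-miR156a_L+1_1ss21CT. Equal sums kept 9, without ath-miR162a-5p_L-1 and vvi-miR156a_L+1_1ss21CT, and brought in PC-5p-97_25693 and PC-3p-859_3455 among others. Scaling by median ratio kept all 11. Replicate numbers are shared between organs. Of 6 correlations of deviations, 1 was positive and above 0.1, root with leaf at 0.24. Flower with root at -0.20 and fruit with root at -0.14 were negative. The numbers were not taken as pairs in the main fit, though these values do not settle whether they are. The fit with the replicate block made 1 class call, 1 family call and 0 calls between organs (58 at an unadjusted p under 0.05). The call of hbr-MIR6173-p3_1ss3CT was lost under that block (adjusted p = 0.118, limma). In 463 recomputed values of the class difference (12 miRNAs, 4 families) and of flower minus fruit (7 miRNAs), no direction was reversed. Except for ath-miR157a-5p_2ss12TG15AG, the values compared did not overlap to begin with. For these, leaving out a library or changing the pseudocount, filter or fit could not reverse a direction, and only the scalings could have. Other named miRNAs were not recomputed. Of the 463 values, 69 lost a call and 17 gained one. The cause was not tested.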

Other observations

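The 5 miRNAs listed above 0 in flower 1 and fruit 2 alone were bdi-MIR7757-p5_1ss18CT, tae-miR9773_R+1, ata-miR528-5p, ata-miR168-3p_1ss6CG, at 14.3 and 30.4, and bdi-miR393b-3p, at 6.05 and 10.1. Each was higher in fruit 2. All 5 carry names from grasses, which 44 of the 270 sequences do. The other 23 pairs of libraries from different organs shared at most 3 miRNAs in this way, with 14 in all, of which 3 had grass names. The ata-miR528-5p sequence is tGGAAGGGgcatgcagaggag, and miR528 is known as a family of monocots. Pearson's r across miRNAs was 0.85 between flower 1 and fruit 2, and 0.719 between flower 2 and fruit 1.

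The values of gma-MIR156f-p3_1ss12CG, another miRNA picked for its values, were 5757 and 2500 in flower and 0 and 698 in fruit, against 37 and 0 in root and 44 and 0 in leaf. As with ath-miR157a-5p_2ss12TG15AG, fruit 1 was the low library among the reproductive ones. Its log2 class difference was 5.62 ± 2.46 and was not called (SE, adjusted p = 0.274, limma).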
